A study of Mus musculus with 6 samples.

Results

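The proteasome is the large protease that degrades proteins tagged with ubiquitin, and its genes were read here in 6 RNA sequencing libraries of cultured mouse ovary. The members were all genes of the deposited table whose symbol is Psm, a letter from a to g and a number, leaving out pseudogenes named with -ps, which gave 51 of 26329 genes. They comprised 7 genes of the alpha ring, 7 of the constitutive beta ring, 4 of the immune and thymus beta subunits, 6 ATPases, 11 lid and other non-ATPase subunits, 7 assembly factors, 6 activators and inhibitors, and the germ cell alpha subunit Psma8. The other 2 matched the name without coding for a subunit: Psmc3ip, a partner of the meiotic recombinases, and Psme3ip1, a protein that binds the activator Psme3.

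All libraries are of cultured ovary, 3 with DMSO, the solvent control (Control), and 3 with ISRIB (ISRIB). ISRIB is a small molecule that activates the guanine nucleotide exchange factor eIF2B, and so lifts the restraint on translation set by the integrated stress response. The series, by its title, concerns this response and the activation of primordial follicles, the resting oocyte reserve. Its design text names newborn ICR mice for the injected animals. The labels of these libraries give no strain, age, dose or culture time, and do not say that replicates are separate animals or cultures. The p-values therefore reflect the spread among these libraries, which could be technical only.

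The core of the proteasome is a barrel of stacked alpha and beta rings. The beta rings carry the protease sites, and the alpha rings form the gate. A regulatory particle, made of a base with a ring of ATPases and a lid that removes ubiquitin, caps the barrel and feeds substrates into it. Cells exposed to interferon, and many leukocytes, replace the catalytic beta subunits with immune forms, and germ cells have an alpha form of their own. Oocytes keep large protein stores for later development, and degradation by the proteasome takes part in oocyte maturation. Transcription of the subunit genes is raised by the factor NFE2L1 through the antioxidant response element when proteasome activity falls short.

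Levels are the FPKM that the authors deposited, reads scaled to gene length and library size. Whole reads worked back from them added up to 34474821 to 38002135 per library. Markers of the labelled tissue were present in every library: the germ cell helicase Ddx4 measured 15.8 to 16.6 FPKM, the oocyte factor Gdf9 105 to 140, the granulosa factor Foxl2 137 to 163 and the granulosa receptor Amhr2 74.6 to 93.3. Immediate early genes, which respond to handling within minutes, summed to 444 FPKM in ISRIB replicate 1 and 323 in Control replicate 2, against 150 to 184 in the other libraries. Red cell genes summed to 328 FPKM in ISRIB replicate 1 and to 40.5 to 75.8 elsewhere. The 5 endothelial markers summed to 109 to 115 FPKM in Control and 87.3 to 97.2 in ISRIB. None of them passed the test (lowest limma adjusted p = 0.109), and the groups overlapped for Tek. In whole ovaries, fewer cells of a type and less RNA per cell cannot be told apart.

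The element recognised by NFE2L1 and its relatives is shown because proteasome genes are its classic targets. Of the 51 members, 43 had a promoter in the RefSeq table (GRCm38.p6) that could be read. The 250 bases before the first listed start were searched on both strands for TGACNNNGC, and 5 of 43 members (11.6%) held it, against 10.1% of 27025 promoters. The windows below carry it in capitals with up to 10 bases on either side, read along the strand of the gene. In Psmc6 and Psmd12 the element lies on the opposite strand and appears as its reverse complement.
Psmb5: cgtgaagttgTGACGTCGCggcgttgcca
Psmb6: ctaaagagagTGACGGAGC
Psmd9: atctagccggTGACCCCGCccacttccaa
Psmc6: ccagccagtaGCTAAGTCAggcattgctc
Psmd12: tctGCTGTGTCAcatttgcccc
These lie at chr14:54618024-54618052 (minus strand, Psmb5), chr11:70525338-70525356 (plus, Psmb6), chr5:123228149-123228177 (plus, Psmd9), chr14:45329587-45329615 (plus, Psmc6) and chr11:107479278-107479299 (plus, Psmd12). The 5 genes had log2 fold changes of 0.12, 0.10, −0.00, 0.13 and 0.07 in the same order. The interferon-gamma activated site, TTCNNNGAA, was found before 2 of the 43 members (4.65%, against 7.18% of the 27025 promoters). It is shown because 1 of these members is the immune subunit gene Psmb8, at chr17:34198088-34198116 (plus strand).
Psmb8: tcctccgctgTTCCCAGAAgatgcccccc
The other member with this site was the assembly factor Psmg1. The interferon-stimulated response element was found before 3 members (6.98%, against 3.04%), the CCAAT box before 15 (34.9%, against 34.5%) and CCGGAAG, bound by ETS factors, before 12 (27.9%, against 7.05%). The windows of Psmb8 and Psmd9 lie inside the span that GENCODE M21 gives these genes, which begins upstream of the RefSeq start used. A match of letters is a description and not a binding site.

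No proteasome gene passed the test between ISRIB and Control. Of the 51 members, 50 had a mean of at least 1 FPKM and entered limma with all 12922 such genes, on log2(FPKM + 0.5), two-sided. At a Benjamini-Hochberg adjusted p under 0.05 the test called 0 of the 50 members and 0.0% of all genes tested. The member with the smallest adjusted p was Psme2 (0.0995), and no alternative processing brought any member below 0.0804. In a second limma fit, voom on the whole reads, 120 genes passed overall and again 0 members did. At an unadjusted p under 0.05, 8 members were higher and 0 lower in ISRIB, beside 8.71% of all genes higher and 7.73% lower. The 8 were Psme2, Psmc6, Psma5, Psma7, Psma6, Psmb1, Psma2 and Psma8. That count of 8 depended on single libraries and on scaling: it was 3 without Control replicate 1, 3 without Control replicate 2, 5 without ISRIB replicate 1, and 2 after TPM rescaling or after a correction for gene length. Those 2 changes also gave 5 members lower at an unadjusted p under 0.05, and 3 were lower without ISRIB replicate 1. The share of all genes at that level was not counted for these alternatives.

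The members' differences were small. Fold changes ran from −0.13 to 0.37 on the log2(FPKM + 0.5) scale, with a median of 0.05 beside 0.01 for all genes tested, and 35 of 50 were positive (70.0%, against 51.8% of all genes). The median 95% interval reached 0.12 to either side of a member's value, against 0.17 for all genes. All ISRIB libraries lay above all Control libraries for 13 members and below for 2, where 10.8% and 12.0% of all genes did. The alpha ring had a median of 0.13 with 7 of 7 positive, the beta ring 0.10 with 6 of 7, the ATPases 0.02 with 4 of 6, and the lid and other non-ATPase subunits 0.00 with 6 of 11. The assembly factors had −0.00 with 3 of 7 positive, and the activators and inhibitor 0.05 with 4 of 6. A correction for gene length moved the median of the members to −0.01, with 24 of 50 positive, beside 6828 of 12922 among all genes. TPM rescaling moved it to 0.00, with 26 of 50 positive, beside 4654 of 12922 among all genes. TPM rescaling shifted the median of all genes to −0.05.

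**Figure D1:**
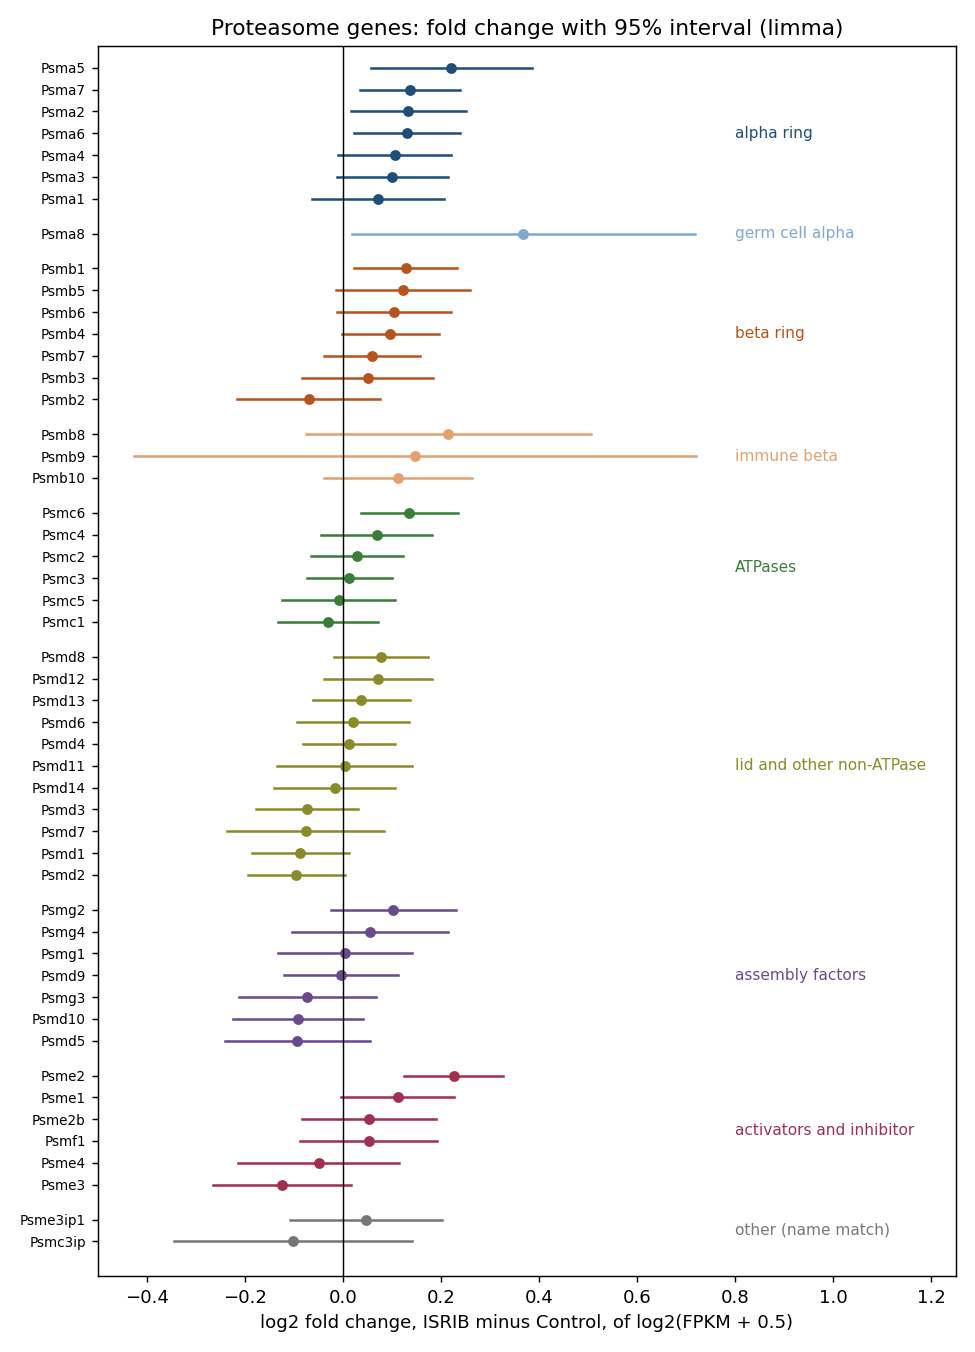
Each point is the log2 fold change (ISRIB minus Control, of log2(FPKM + 0.5)) of 1 proteasome gene with its 95% interval from limma, n = 3 libraries per group, colored by class. All 7 alpha ring genes lie to the right of 0, while the lid and other non-ATPase genes spread from −0.10 to 0.08 around it.

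Fold change ran against gene length among all genes, and the classes of the proteasome differ in length. The length implied by the FPKM had a median of 1093 bases over the 14 alpha and beta ring genes and 1620 bases over the 17 base and lid genes, against 3549 for all genes tested. Across the 12922 genes Spearman's rho between length and fold change was −0.361 and Pearson's r on log2 length −0.318, and across the 50 members they were −0.417 and −0.322. Genes share libraries and are not independent, so no p is given. Of 10 equal bins of all genes by length, the shortest (median 903 bases) had a median fold change of 0.10 and the next (1561 bases) 0.06. The median of the rings was 0.10 as deposited and 0.04 after the length trend was removed, with 10 of 14 positive in place of 13. The alpha ring stayed at 7 of 7 positive, with a median of 0.06, and the beta ring had −0.02 with 3 of 7 positive, and 0.04 after quantile normalization. The base and lid had a median of 0.01 as deposited and −0.04 after the correction, with 10 and 4 of 17 positive. After TPM rescaling the medians were 0.05 for the rings and −0.04 for the base and lid.

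**Figure D2:**
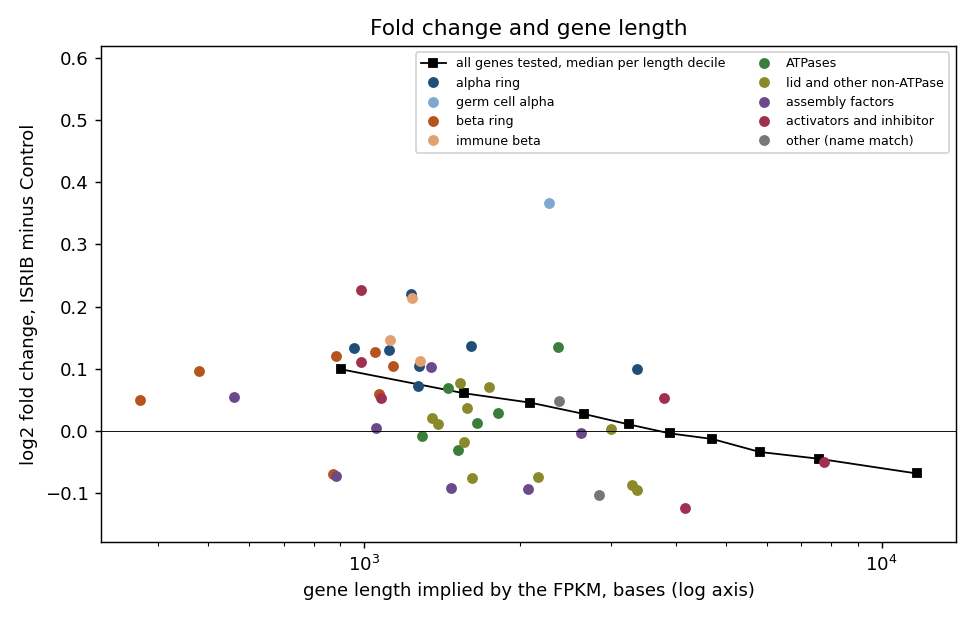
Fold change (log2, ISRIB minus Control) of the 50 tested members against the gene length implied by the FPKM (bases, log axis), colored by class, with black squares for the median of all genes in each of 10 bins by length. The squares fall from 0.10 to −0.07, and the members scatter from −0.13 to 0.37 around them.

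The libraries of a group did not act alike. As the mean deviation of the 7 alpha ring genes from their own means over the 6 libraries, on the log2(FPKM + 0.5) scale, Control replicates 1 to 3 had −0.10, −0.09 and −0.01, and ISRIB replicates 1 to 3 had 0.10, 0.07 and 0.03. The groups did not overlap, but Control replicate 3 and ISRIB replicate 3 lay close together. ISRIB replicate 1 was the library with the highest immediate early and red cell sums. It was highest for the alpha ring, the beta ring, the ATPases and the lid and other non-ATPase subunits, with 0.10, 0.08, 0.07 and 0.03. The part of these markers in the result was not tested. Without this library the median fold change was 0.11 for the alpha ring, 0.06 for the beta ring, 0.08 for both rings together and −0.00 for the base and lid, which without Control replicate 1 also had −0.00. The mean deviation of the rings minus that of the base and lid was −0.07, −0.07 and −0.00 in Control and 0.04, 0.04 and 0.06 in ISRIB. Every ISRIB value was thus above every Control value, with Control replicate 3 nearest. This difference between the parts was not tested.

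**Figure D3:**
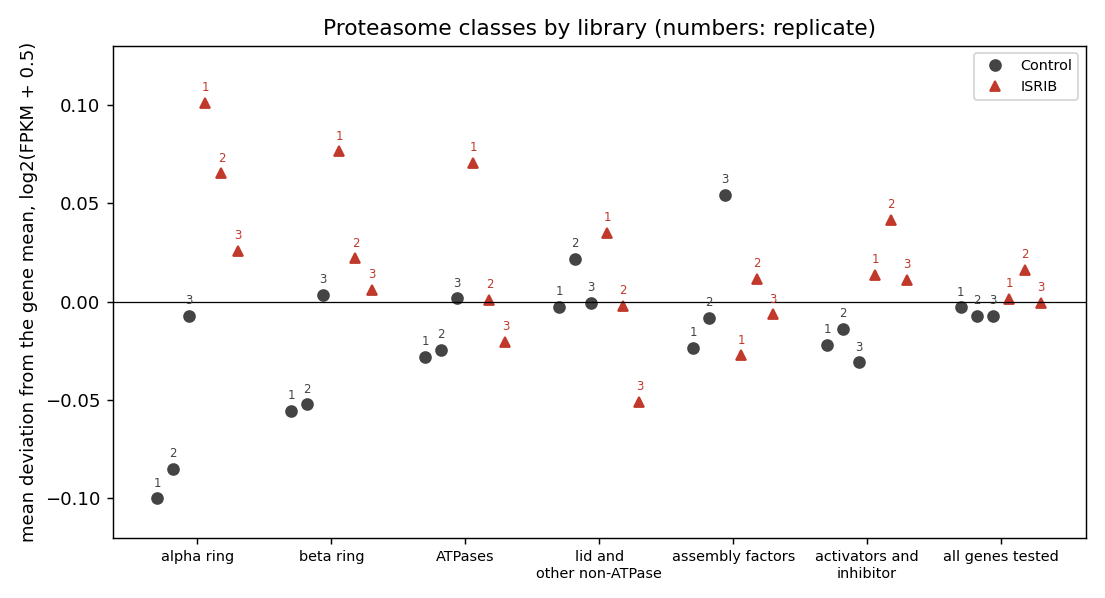
Mean deviation of each class from its genes' means over the 6 libraries (log2(FPKM + 0.5)), 1 point per library, numbered by replicate, with all genes tested for comparison. Alpha ring values run from −0.10 in Control replicate 1 to 0.10 in ISRIB replicate 1. For the lid and other non-ATPase class the groups overlap.

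The alpha ring genes code for the gate of the barrel. Psma5 had the largest fold change among them (chromosome 3, 108256926 to 108279974, plus strand, GRCm38). It measured 36.9, 33.4 and 38.7 FPKM in Control and 46.1, 40.4 and 40.8 in ISRIB, which gave 0.22 as the log2 fold change (SE 0.0711, limma adjusted p = 0.201). All ISRIB libraries were above Control, with ISRIB replicate 1 the highest. Its exons overlap those of a gene on the opposite strand, whose reads may not be told apart. Psma7 had 68.6, 70.2 and 71.7 FPKM in Control and 79.9, 77.9 and 73.8 in ISRIB (0.14, SE 0.0441, limma adjusted p = 0.201). Psma6 had 73.3, 75.1 and 80.1 FPKM against 85.6, 83.4 and 81.1 (0.13, limma adjusted p = 0.233). In both genes the groups were separate by a narrow margin. Psma2, the most abundant of the ring, had 86.8, 93.0 and 98.5 FPKM and then 102.6, 101.2 and 100.9 (0.13, limma adjusted p = 0.255). Its ISRIB libraries agreed more closely with each other (SD 0.897) than its Control libraries did (SD 5.88), and without Control replicate 1 the fold change was 0.09. The lowest was Psma3, at 20.5 to 21.8 FPKM in Control and 21.9 to 23.4 in ISRIB (0.10, 95% interval −0.01 to 0.21). Its FPKM stand on an implied length of 3366 bases, against 958 to 1611 for the other 6, and its 2376 to 2907 reads per library were more than the 1563 to 2040 of Psma5. The order of these levels therefore rests on the lengths the authors used. Psma4 had a fold change of 0.10, with the groups separate, and Psma1 of 0.07, with the groups overlapping.

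Among the constitutive beta ring genes the mean level ran from 47.6 FPKM for Psmb5 to 139 for Psmb4. Psmb3 and Psmb4 have the shortest implied lengths of all members, 370 and 480 bases, which are 0.245 and 0.406 of their longest GENCODE M21 transcripts, so their FPKM sit high for their reads. Psmb4, a structural subunit, had 134.7, 129.8 and 137.7 FPKM in Control and 149.0, 141.2 and 139.9 in ISRIB (log2 fold change 0.10, limma adjusted p = 0.317). The groups did not overlap, and the fold change was −0.02 after the length correction. Psmb1, another structural subunit, had the largest fold change of the ring, 0.13 (limma adjusted p = 0.236), from 108 to 117 FPKM in Control and 118 to 124 in ISRIB. Psmb2 was the member of the ring with a negative value, with 94.6, 103.6 and 107.9 FPKM and then 96.6, 103.2 and 91.6 (−0.07, 95% interval −0.22 to 0.08). Its groups overlapped widely.

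The 3 catalytic positions showed the constitutive forms far above the immune ones. Psmb6, the caspase-like site, had 101.5, 101.6 and 108.8 FPKM in Control and 117.9, 109.8 and 107.6 in ISRIB (log2 fold change 0.10, 95% interval −0.01 to 0.22), and the groups overlapped. Without ISRIB replicate 1 it was 0.06. Its immune counterpart Psmb9 (chromosome 17, 34181987 to 34187764, minus strand) had 3.54, 6.47 and 6.65 FPKM in Control and 4.53, 7.80 and 6.04 in ISRIB (0.15, SE 0.249, limma adjusted p = 0.809). The level of Psmb6 was 14.1 to 28.7 times that of Psmb9 in the 6 libraries. Psmb9 was lowest in replicate 1 of both groups, and its 137 reads in Control replicate 1 (95% Poisson interval 115 to 162, counting error only) lay below the 276 and 284 of the other Control libraries. Its fold change ran from −0.12 to 0.33 as single libraries were left out, with −0.12 without Control replicate 1 and −0.03 without ISRIB replicate 2. Its exons overlap those of Tap1 on the opposite strand, and Tap1, a peptide transporter for antigen presentation, had 9.74 to 10.7 FPKM in Control and 9.90 to 11.6 in ISRIB.

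Psmb7, the trypsin-like site, had 87.0, 91.5 and 89.0 FPKM in Control and 94.9, 94.6 and 89.2 in ISRIB (log2 fold change 0.06, 95% interval −0.04 to 0.16, and −0.02 after the length correction). Its immune form Psmb10 had 11.8, 10.9 and 10.9 FPKM and then 12.7, 11.3 and 12.5 (0.11, 95% interval −0.04 to 0.26). Psmb10 made up 10.6% to 12.3% of the pair in all libraries. Psmb5, the chymotrypsin-like site that proteasome inhibitors bind, had 44.9, 46.2 and 45.4 FPKM in Control and 54.1, 48.2 and 46.6 in ISRIB (0.12, SE 0.0592, limma adjusted p = 0.349). Its ISRIB libraries lay just above Control, and ISRIB replicate 1 stood highest. Without ISRIB replicate 1 the fold change was 0.06. Psmb8, the immune form (chromosome 17, 34197721 to 34201454, plus strand), had 5.48, 5.39 and 6.74 FPKM in Control and 6.16, 8.27 and 6.32 in ISRIB (0.21, SE 0.126, limma adjusted p = 0.436). The groups overlapped, and without ISRIB replicate 2, the highest library, the fold change was 0.09. As a share of the pair, Psmb8 averaged 11.4% ± 1.32 (SD, n = 3) in Control and 12.3% ± 2.23 (SD, n = 3) in ISRIB. The thymus subunit Psmb11 was under the filter, at 0.0776 to 0.215 FPKM from 12 to 34 reads per library.

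**Figure D4:**
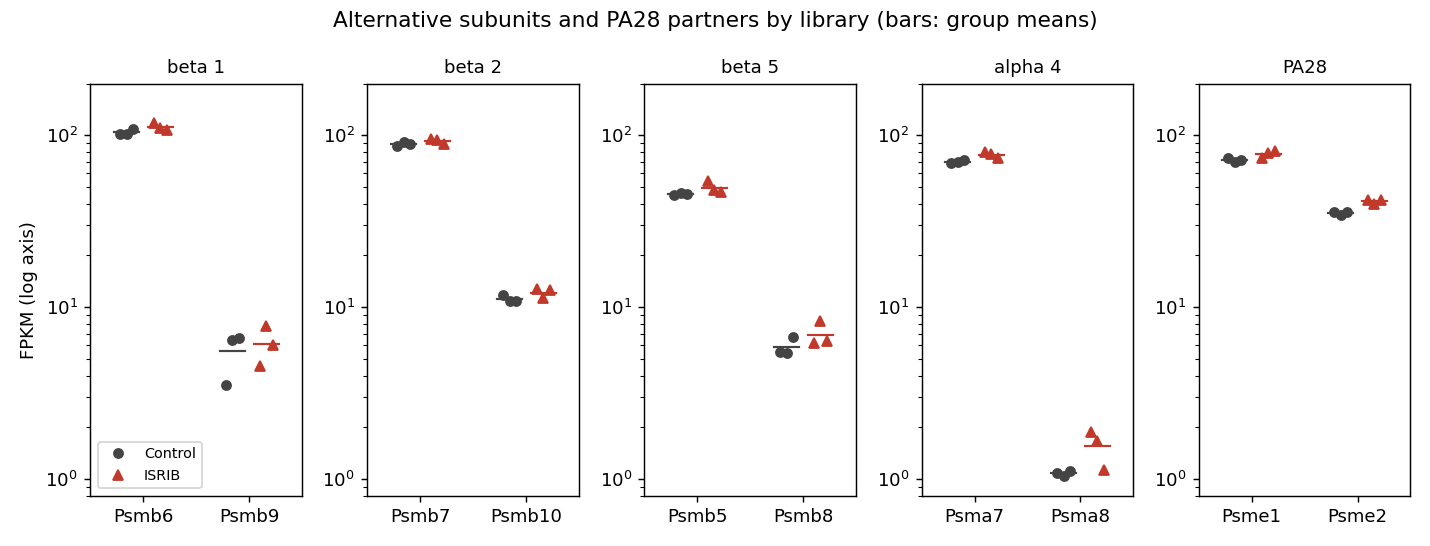
FPKM (log axis) by library of the constitutive and immune catalytic subunits, of Psma7 and the germ cell form Psma8, and of the activator genes Psme1 and Psme2. Gray circles are Control, red triangles ISRIB, and bars the means of 3 libraries. Immune forms lie at 3.54 to 12.7 FPKM, their constitutive partners at 5.83 times those levels or more, and Psma8 at 1.04 to 1.88.

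The genes that work with the immunoproteasome in antigen presentation, and leukocyte markers, are given beside these values. Of 12 antigen presentation genes 7 had positive and 5 negative fold changes (median 0.06), and none passed the test. B2m, the light chain of MHC class I, had 277, 296 and 283 FPKM in Control and 310, 334 and 338 in ISRIB (log2 fold change 0.20, limma adjusted p = 0.125). H2-D1 had a fold change of 0.21 (limma adjusted p = 0.420), Irf1, a transcription factor of the immune subunits, 0.11 (limma adjusted p = 0.426), and Nlrc5, the activator of MHC class I genes, −0.37 (limma adjusted p = 0.229). Of 10 leukocyte markers 8 passed the filter, of which 2 were positive and 6 negative. Their summed level over all 10 was 49.3 to 53.2 FPKM in Control and 47.0 to 52.5 in ISRIB. Csf1r, the receptor of macrophages, had the lowest p of them (−0.36, limma adjusted p = 0.101), with all ISRIB libraries below Control. Fcer1g, with the next lowest p, went the other way (0.28, limma adjusted p = 0.194), with all ISRIB libraries above Control. None of the 10 markers was at 0, and Ptprc, the common leukocyte antigen, measured 0.361 to 0.604 FPKM. The part of leukocytes in the levels of the immune subunits was not tested.

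Psma8, the alpha subunit of germ cells that takes the place of Psma7, had the largest fold change of all members (chromosome 18, 14706151 to 14762301, plus strand). It measured 1.08, 1.04 and 1.11 FPKM in Control and 1.88, 1.67 and 1.13 in ISRIB, which gave 0.37 as the log2 fold change (SE 0.152, limma adjusted p = 0.289). ISRIB replicates 1 and 2 stood apart, while ISRIB replicate 3 was level with Control. The reads were 85, 90 and 96 in Control and 154, 140 and 92 in ISRIB. Without ISRIB replicate 3 the fold change was 0.53 (limma adjusted p = 0.226), and without ISRIB replicate 1 it was 0.25. Psma8 made up 1.46% to 2.30% of its sum with Psma7. Psmc3ip, which works with Mnd1 in pairing homologous chromosomes in meiosis, had 4.85, 5.31 and 4.28 FPKM in Control and 4.97, 4.43 and 3.94 in ISRIB (−0.10, 95% interval −0.35 to 0.14). It ran from −0.18 without ISRIB replicate 1 to −0.03 without ISRIB replicate 3. Mnd1 had a fold change of 0.19 (limma adjusted p = 0.310). The groups overlapped for both. Of 9 meiotic prophase markers 3 had positive and 6 negative fold changes, with a summed level of 129 to 148 FPKM in Control and 127 to 142 in ISRIB. Most of that sum was Sycp3, at 79.6 to 95.04 FPKM. Syce3, of the synaptonemal complex, had the lowest p of these markers, with 1.61, 2.21 and 2.16 FPKM in Control and 0.845, 0.582 and 0.751 in ISRIB (−1.02, limma adjusted p = 0.0799). Its ISRIB libraries lay below Control. The 3 markers with positive fold changes were Mnd1, Sycp2 (0.15) and Sycp3 (0.02). Of 8 oocyte markers 5 were positive, with 839 to 934 FPKM in sum in Control and 946 to 1049 in ISRIB. The largest part of that sum was Zp3, at 361 to 466 FPKM. Dazl, Nobox and Sohlh1 were the 3 negative ones, with −0.09, −0.10 and −0.18, and Ddx4 had 0.01. The part of these markers in the level of Psma8 was not tested. Psme3ip1 had a fold change of 0.05 and overlapping groups.

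The ATPases unfold substrates at the mouth of the barrel. Psmc6 had the largest fold change among them (chromosome 14, 45329788 to 45349705, plus strand). It measured 45.6, 48.8 and 47.4 FPKM in Control and 53.0, 50.9 and 52.0 in ISRIB (log2 fold change 0.13, SE 0.0429, limma adjusted p = 0.196). All ISRIB libraries lay above all Control libraries. The other 5 ATPase genes had overlapping groups and fold changes of −0.03 to 0.07. Psmc3 was the most abundant, at 95.1 to 98.8 FPKM in Control and 97.0 to 100.3 in ISRIB (0.01, 95% interval −0.08 to 0.10). Its interval is among the narrower ones of the members. Psmc1 had −0.03 and Psmc4 0.07.

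The lid and the other non-ATPase subunits included Psmd2, the member with the lowest p among those with negative fold changes. Psmd2, a scaffold of the base that holds ubiquitin shuttles (chromosome 16, 20651652 to 20663414, plus strand), had 90.3, 92.5 and 93.0 FPKM in Control and 89.3, 86.2 and 82.4 in ISRIB. Its log2 fold change was −0.10 (SE 0.0429, limma adjusted p = 0.315). Psmd1, its partner scaffold, had 56.9, 57.4 and 56.9 FPKM and then 56.1, 52.9 and 52.0 (−0.09, limma adjusted p = 0.348). In both genes all ISRIB libraries lay below Control, ISRIB replicate 1 only slightly. Psmd3, a lid subunit, had a fold change of −0.07 (−0.04 without ISRIB replicate 2) and overlapping groups. Psmd14, the deubiquitinase of the lid, had 40.1, 42.6 and 44.5 FPKM in Control and 43.4, 42.3 and 40.0 in ISRIB (−0.02, 95% interval −0.14 to 0.11). Psmd4, a ubiquitin receptor, was the most abundant of the class, with 101 to 106 FPKM in Control and 102 to 107 in ISRIB (0.01, 95% interval −0.08 to 0.10). Psmd11, a lid subunit with the lowest level of the class, had 31.7 to 33.6 FPKM against 30.2 to 34.7 (0.00). The highest fold change of the class, in Psmd8, was 0.08 (limma adjusted p = 0.399).

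Assembly factors build the particle but are no part of it, and had mean levels of 12.7 to 30.6 FPKM. Psmg1 and Psmg2, which form a chaperone pair for the alpha ring, had fold changes of 0.00 and 0.10. Psmg2 had 23.4, 26.3 and 25.9 FPKM in Control and 26.5, 27.6 and 27.0 in ISRIB (limma adjusted p = 0.399), with the groups just separate, and its fold change was 0.05 without Control replicate 1. Psmg3 and Psmg4, a further chaperone pair, had −0.07 and 0.05, and Psmg3 had −0.02 without Control replicate 3. The chaperones of the ATPase ring had values at or below 0: Psmd10, also known as gankyrin, had 16.5, 15.9 and 17.1 FPKM and then 15.9, 15.97 and 14.5 (−0.09, limma adjusted p = 0.460, and −0.05 without ISRIB replicate 3), Psmd5 had −0.09 and Psmd9 −0.00. The groups overlapped for these 3 genes.

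Activators open the gate without the regulatory particle. Psme2, which forms an interferon-inducible ring with Psme1, had the smallest p of all members (chromosome 14, 55587441 to 55591113, minus strand). It measured 35.6, 34.5 and 36.0 FPKM in Control and 42.3, 39.9 and 42.2 in ISRIB, which gave 0.23 as the log2 fold change (SE 0.0439, limma adjusted p = 0.0995). The gap between the groups was wider than the spread within either, and the fold change was 0.21 to 0.25 as single libraries were left out. After the length correction it was 0.15 (limma adjusted p = 0.240), and after TPM rescaling 0.18 (limma adjusted p = 0.110). Its single-exon copy Psme2b (means of 10.5 FPKM ± 0.170 (SD, n = 3) in Control and 10.9 ± 0.657 (SD, n = 3) in ISRIB) is 99.4% identical over 794 aligned bases of the GENCODE transcripts, so reads of the 2 genes may be exchanged and both values are uncertain. Psme1 had 74.3, 69.6 and 72.3 FPKM and then 73.7, 78.6 and 81.4 (0.11, limma adjusted p = 0.318), and ISRIB replicate 1 lay within the Control range. Psme3, the nuclear relative of this pair, had a fold change of the opposite sign, with 30.5, 32.3 and 30.9 FPKM in Control and 31.2, 27.8 and 27.0 in ISRIB (−0.13, SE 0.0609, limma adjusted p = 0.348). ISRIB replicate 1 again lay within the Control range, and without it the fold change was −0.19. Psme4, a large activator that acts on histones in germ cells, had −0.05 (95% interval −0.21 to 0.11), and Psmf1, an inhibitor in vitro that also carries proteasomes along axons, 0.05 (−0.09 to 0.19).

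Genes that act with the proteasome but carry other names went both ways, and none passed the test. Of 21 partners (ubiquitin receptors, deubiquitinases, shuttle factors and the segregase Vcp) 20 were found by symbol. Of these, 9 had positive and 11 negative fold changes, with a median of −0.02. Sem1, the smallest subunit of the lid, had 111, 117 and 132 FPKM in Control and 139, 140 and 134 in ISRIB (0.20, limma adjusted p = 0.201), and Txnl1, a thioredoxin bound to the regulatory particle, had 0.16 (limma adjusted p = 0.184). Their groups were separate. The shuttle factor Ubqln2 had 34.3, 35.1 and 33.9 FPKM and then 30.6, 31.1 and 31.3 (−0.15, limma adjusted p = 0.143), and the ligase Ube3c −0.18 (limma adjusted p = 0.203), both with all ISRIB libraries below Control. The core assembly factor Pomp had 0.06 and the receptor Adrm1 −0.09.

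Of 12 genes around NFE2L1, 5 had positive and 7 negative fold changes, with a median of −0.02. Nfe2l1 itself had 71.9, 73.3 and 71.2 FPKM in Control and 68.9, 65.5 and 69.9 in ISRIB (−0.08, 95% interval −0.18 to 0.01). All ISRIB libraries were below Control. Fbxw7, a ligase that degrades it, had −0.18 (limma adjusted p = 0.339), Ddi2, the protease that cuts it into its active form, −0.18 (limma adjusted p = 0.379), and its partner Mafg 0.11 (limma adjusted p = 0.399). Another partner, Maff, had 4.004, 5.54 and 4.57 FPKM in Control and 8.65, 5.40 and 5.19 in ISRIB (0.39, limma adjusted p = 0.349). ISRIB replicate 1 alone lay above the Control range. Of 13 genes of ubiquitin and its activation 11 were positive and 2 negative, with a median of 0.08. Rps27a, which codes for ubiquitin fused to a ribosomal protein, had 389, 429 and 442 FPKM in Control and 503, 517 and 550 in ISRIB (0.32, limma adjusted p = 0.0987). The groups did not overlap. The polyubiquitin gene Ubb, which carries no ribosomal part, had 0.02 (95% interval −0.08 to 0.13). The activating enzymes Uba1 and Uba6 were the negative ones, with −0.16 and −0.22 (limma adjusted p = 0.126 and 0.203), and for both all ISRIB libraries lay below Control.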

How the data were processed

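The deposited values are FPKM for each of the 6 libraries. Tools listed in the submitters' processing notes are DESeq2, fastp, HTSeq, HISAT2 and R 3.2.0, and the build is mm10; which step each served is left out. No annotation, strand setting or gene length is stated. Exons of 12 members overlap exons of a gene on the opposite strand. They are Psma4, Psma5, Psmb7, Psmb8, Psmb9, Psmc3, Psmc3ip, Psmd1, Psmd3, Psmd9, Psmd13 and Psme1. Exons of 4 members, Psmb5, Psmd1, Psmg3 and Psme2b, overlap exons of another gene on the same strand. Reads at these overlaps may not be told apart. Groups came from the titles.

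Dividing the FPKM by a library factor and a gene factor gave whole reads (100.0% of genes, tolerance 0.01 read) and an implied length per gene. Main test: limma 3.58.1 in R 4.3.3, empirical Bayes with an intensity trend. On data simulated for this comparison over 12922 genes it called 63 of 100 genes changed by 0.5 (log2) and 92 of 100 changed by 1. It also called 8 unchanged genes. Both sizes exceed the largest fold change of a member, 0.37, so power at the members' sizes was not shown. Noise was drawn separately for each gene and library, so shifts shared within a library were not simulated. Intervals on reads are exact Poisson intervals. The length correction removed a loess trend (span 0.5) from each library. Positions and exon overlaps are from GENCODE M21 (GRCm38, the build of mm10), matched by symbol. Python 3.11.15 and matplotlib 3.10.9 drew the figures.

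Named members were set by role, by the 5 smallest p in each direction, and by the highest and lowest level of each class, and genes of other lists from the up to 4 with the smallest p, not all of which are printed. Ptprc, Adrm1, Pomp, Tap1, Mafg, Sycp3, Tek, Ubb, Ddx4 and Foxl2 were added as background. Psma1, Psma4, Psmb1, Psmb2, Psmb3, Psmc1, Psmc4, Psmd5, Psmd8, Psmd9 and Psmd12, which that rule does not cover, were added with their values known. Psme3ip1, in no fixed class, was placed with Psmc3ip. Members and lists were chosen with earlier results of these data known. The alternatives were other pseudocounts, filters, scalings, variance settings, a replicate block, a length correction, voom and leaving out each library.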

Additional observations from a re-analysis of the deposited data

How the results depend on the processing

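No proteasome gene passed in any of the 19 alternatives. Over all genes 8 passed at a mean FPKM of at least 5, 9 after the gene length correction and 120 with voom on recovered reads, and 0 as each library was left out. Members at an unadjusted p under 0.05 and higher in ISRIB numbered 2 after TPM rescaling, 4 after quantile normalization, 5 without the intensity trend, 2 after the length correction, and 3 to 11 as single libraries were left out. Those lower numbered 2 with no filter, 5 with TPM, 4 with quantile normalization, 5 with the length correction, and 0 to 3 as libraries were left out. The share of all genes at that level was not counted for these alternatives. Members with positive fold changes numbered 31 to 37 as libraries were left out.

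The numbers 1 to 3 carry no stated pairing. Deviations from the group means correlated at −0.19, −0.09 and 0.19 between same-numbered libraries, and not every library correlated best with its own number. With the replicate block 11 genes passed, and 24 with the replicate block and the length correction, 0 of them members. That last fit had 2 members higher and 4 lower at an unadjusted p under 0.05, and its fold changes are those of the length correction.

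The median of the members was 0.0014 with TPM and −0.011 with the length correction, and 0.041 to 0.065 as libraries were left out. That of the rings was 0.052 with TPM, 0.038 with the length correction and 0.080 to 0.126 with libraries left out. That of the base and lid was −0.041 with TPM, −0.041 with quantile normalization, −0.043 with the length correction, and −0.0049 to 0.023 with libraries left out. The beta ring had −0.016 with the length correction. With TPM, quantile normalization and the length correction in that order, the ATPases had −0.032, −0.020 and −0.028. The lid and other non-ATPase class had −0.050, −0.041 and −0.050. In the same order, Psmd4 had −0.041, −0.054 and −0.050, and Psmg1 −0.048, −0.0057 and −0.071. Psmc3 had −0.040, −0.041 and −0.039, and Psmd11 −0.050, −0.017 and −0.0071. The length correction also gave −0.016 for Psmb7, 0.0058 for Psme4, −0.056 for Psmg4, −0.022 for Psme2b and −0.024 for Psmb4, and TPM gave −0.0050 for Psme3ip1. With libraries left out, values crossed 0 for the lid and other non-ATPase class (−0.037 to 0.017) and the assembly factors (−0.040 to 0.020). They also did so for Psmb9 (−0.12 to 0.33), Psme4 (−0.11 to 0.022), Psmd4 (−0.011 to 0.032) and Psmd14 (−0.057 to 0.017). The others were Psmg1 (−0.050 to 0.034), Psmg4 (−0.0084 to 0.099), Psmc3 (−0.0049 to 0.023), Psmd11 (−0.037 to 0.062) and Psme3ip1 (−0.021 to 0.11). Of 34 named members with a fold change, 22 kept its sign in every alternative. The causes were not tested. Reads per library were fewest for Psmb11 (12 to 34), Psma8 (85 to 154) and Psmb9 (137 to 323). Psmb9 also varied among the Control libraries by more than the counting error of its reads.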

Other observations

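The length on which the authors' FPKM rest can be set beside the annotation for 49 members. The implied length was 0.996 times the longest GENCODE M21 transcript at the median of the members, and 1.05 times over the 12558 tested genes matched by symbol. It was furthest below for Psmb3 (0.245), Psma2 (0.329), Psmg3 (0.367), Psmb7 (0.376) and Psmb9 (0.390), and furthest above for Psmc3ip (2.20) and Psme3 (1.56). Levels in FPKM between these genes carry that difference, and so do fold changes after the length correction, which used the implied length. These genes were chosen after their values were seen.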
